A study of Rattus norvegicus with 6 samples.

Results

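The fragments described here are the 5' pieces of nuclear tRNAs that do not carry Gly, Glu, Lys, His, Val, Asp, Gln or Arg, a set referred to as the less cut nuclear tRNAs. A fragment was included when its sequence matched a mature tRNA exactly, started at tRNA position 1, 2 or 3, and had all of its mature alignments on tRNAs of the remaining 14 amino acid classes. The rule found 388 distinct sequences among the 77567 distinct sequences of the deposited table. They hold 3759 reads in all. The 14 classes comprise Ser, Leu, SeC (selenocysteine), Thr, Ala, Pro, Tyr, Cys, iMet (the initiator methionine tRNA), Ile, Phe, elongator Met, Trp and Asn, with 131 listed mature tRNAs, of which 87 have at least 1 such fragment. The name less cut does not hold against every tRNA left out. The 5' fragments of Arg and Gln tRNAs, which were left out, averaged 49.8 and 33.2 RPM (reads per 1000000 tRNA-aligned reads) in the experimental libraries, below Ser, Leu, SeC, Thr, Ala, Pro and Tyr of the set.

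Small RNA was sequenced from Lewis rat muscle, with 3 libraries titled control and 3 titled experimental, from animals 6 to 8 weeks old. The series concerns acute rejection in vascularized composite allotransplantation, but the labels do not say what was done to the experimental animals. A skin phenotype in the labels and a design text on mouse skin describe another material than rat muscle, so the titles alone gave the groups. Whether each library is a separate animal is not stated, and a p-value therefore reflects nothing beyond library-to-library spread, possibly technical. With 3 libraries against 3, the exact permutation test (two-sided) cannot give a p below 0.1. The libraries held 316990 to 740627 tRNA-aligned reads in the control group and 876494 to 1927269 in the experimental group. The markers of muscle cannot be read from tRNA sequences and were not checked.

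A mature tRNA folds into an acceptor stem, a D arm, an anticodon arm and a T arm, and nucleases such as angiogenin cut it in the anticodon loop to leave a 5' and a 3' piece. Cuts nearer the 5' end, in the D arm, leave shorter 5' fragments. Fragments of both kinds are studied as small RNAs that appear under stress in many tissues, and those of Ala and Cys tRNAs that begin with a run of G are known for their effect on translation.

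The most abundant fragment of each of 9 larger classes is printed here because it shows where the 5' pieces of that class stopped. Each line runs 5' to 3' from the first base of the tRNA to the last base of its anticodon loop. Capitals mark the fragment and lower case the bases outside it.
SeC-TCA 1 to 37: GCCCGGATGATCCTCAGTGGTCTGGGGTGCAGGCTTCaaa
Ser-AGA/Ser-TGA 1 to 15: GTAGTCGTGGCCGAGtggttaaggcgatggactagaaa
Tyr-GTA 1 to 16: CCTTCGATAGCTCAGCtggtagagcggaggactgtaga
Thr-TGT 1 to 30: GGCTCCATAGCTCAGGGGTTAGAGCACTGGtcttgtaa
Pro-AGG/Pro-CGG/Pro-TGG 1 to 32: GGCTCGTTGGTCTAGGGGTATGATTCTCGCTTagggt
Leu-AAG/Leu-TAG 1 to 16: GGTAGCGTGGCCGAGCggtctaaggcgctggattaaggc
Ala-AGC 3 to 16: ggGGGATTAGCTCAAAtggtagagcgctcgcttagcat
Cys-GCA 2 to 34: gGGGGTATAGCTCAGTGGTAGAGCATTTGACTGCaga
iMet-CAT 1 to 33: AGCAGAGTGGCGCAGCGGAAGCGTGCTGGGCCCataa
In the SeC, Cys, iMet and Pro lines the capitals run into the anticodon loop. In the Ser, Tyr, Leu and Ala lines they stop inside the D arm, and in the Thr line in the anticodon stem. Where a sequence matched several tRNAs, the first listed is drawn: the Ser fragment matched 6 tRNAs, the Pro fragment 4, the Leu, Ala and Cys fragments 3 each. The tRNAs drawn lie at chr1:80212980-80213066 for SeC, chr5:23358376-23358457 for Ser, chr2:104404682-104404771 for Tyr, chr10:34203028-34203100 for Thr, chr1:163774197-163774268 for Pro, chr17:45635203-45635284 for Leu, chr2:104404891-104404963 for Ala, chr4:77648343-77648414 for Cys and chr2:189865653-189865724 for iMet, in the deposited coordinates, whose genome build the labels and headers do not name.

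The set was a small part of the tRNA-aligned reads in every library. In the control libraries it took 335, 205 and 312 RPM, from 184, 152 and 99 reads. In the experimental libraries it took 900, 860 and 470 RPM, from 789, 1658 and 877 reads. All 3 experimental libraries lay above all 3 control libraries. The group means were 284 ± 69.1 and 743 ± 238 RPM (SD, n = 3 each), or 0.0284% ± 0.00691 and 0.0743% ± 0.0238 of the reads, a ratio of 2.62 (exact permutation p = 0.1, adjusted p = 0.211 over 19 tests of this kind). The counting error of each library was smaller than that gap: the highest control library had a 95% Wilson interval of 290 to 386 RPM and the lowest experimental library one of 440 to 502. These intervals cover counting error only.

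Summed, the 5' fragments of the 8 amino acids left out overlapped between the groups, and Gly alone held 3384873 of their 3879741 reads. The sum made up 60.4% ± 3.87 of the control reads and 61.2% ± 3.36 of the experimental reads (exact permutation p = 0.8, adjusted p = 0.8). Against 10000 reads of those fragments, the set had 4.71 ± 1.17 reads in control and 12.2 ± 4.19 in experimental libraries, with no overlap (exact permutation p = 0.1, adjusted p = 0.211). The sum therefore mostly follows Gly, and 4 of the 8 were higher in every experimental library than in any control library: Lys (7718 ± 1499 and 46660 ± 22593 RPM), Val (519 ± 313 and 2481 ± 1756), Arg (2.40 ± 2.13 and 49.8 ± 21.5) and Gln (1.06 ± 0.944 and 33.2 ± 38.6). Depth differed between the groups as well. Brought to the depth of the shallowest library by calculation, 40.4 ± 7.18 of the 388 sequences would be seen in a control library and 91.8 ± 25.6 in an experimental one (exact permutation p = 0.1, adjusted p = 0.211).

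Most of the sequences were rare. Of the 388, 167 were read once in the whole series and 274 fewer than 5 times, while 12 were seen in all 6 libraries. The 10 most abundant held 40.7% of the reads. The counts by group that follow were not brought to equal depth, and every experimental library was deeper than every control library. A rare sequence can therefore lack control reads through depth alone. The same counts over all 77567 sequences are not given here, so these support no difference between the groups. Both groups contained 97 of the sequences, 279 had no control read and 12 had no experimental read. Their lengths ran from 14 to 39 nt, and because the table starts at 14 nt, ends before about position 14 of a tRNA could not be seen.

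**Figure D1:**
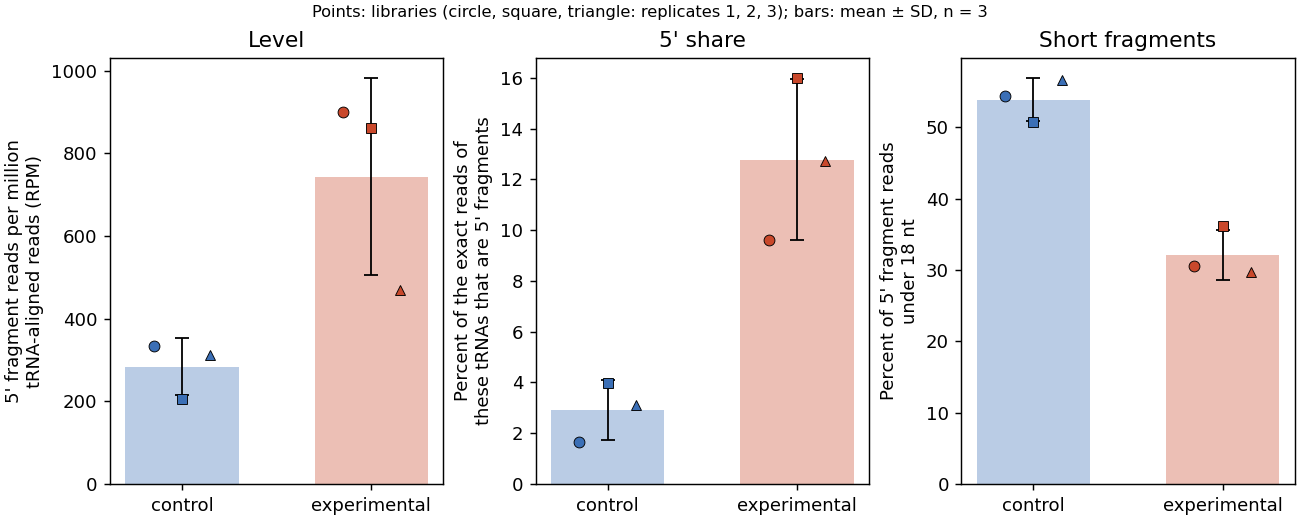
Levels and composition of the 5' fragments by library: the level in RPM, the percent of the exact reads of these tRNAs that are 5' fragments, and the percent of 5' fragment reads under 18 nt. Bars are means ± SD of 3 libraries, and in each panel the 3 control and 3 experimental libraries do not overlap.

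The amino acid classes differed in level by orders of magnitude. Ser was the most abundant, with 57 sequences and 852 reads. Its control libraries had 109, 81.0 and 107 RPM and its experimental libraries 192, 185 and 92.7. The third experimental library fell among the controls, so the groups overlapped (means 99.1 ± 15.7 and 157 ± 55.4, SD, n = 3). Within Ser, the sequences shared by the AGA and TGA anticodons had 82.1 ± 16.4 RPM in control and 110 ± 38.8 in experimental libraries, which overlapped. The Ser-GCT sequences had 10.7 ± 2.96 and 43.4 ± 16.9, which did not.

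Leu had the most sequences, 104, with 697 reads. The control libraries had 63.6, 32.4 and 15.8 RPM and the experimental libraries 227, 154 and 73.4. The experimental libraries were all higher (37.3 ± 24.3 against 152 ± 76.8, SD, n = 3). Among its anticodons, Leu-CAG went from 7.84 ± 4.12 to 45.9 ± 29.2 with no overlap, whereas the sequences shared by Leu-AAG and Leu-TAG overlapped, at 20.8 ± 15.3 and 59.3 ± 26.5.

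SeC, the tRNA that inserts selenocysteine at recoded stop codons, has a single gene in this set yet came next with 644 reads. Its control libraries had 49.1, 43.2 and 53.6 RPM and its experimental libraries 74.2, 131 and 134. No experimental library reached down to the controls (48.6 ± 5.23 against 113 ± 33.8, SD, n = 3). Of those reads, 84.3% were the fragment 1 to 37 printed above.

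Thr followed with 368 reads, 367 of them from the TGT anticodon. The control libraries had 20.0, 10.8 and 31.5 RPM and the experimental libraries 82.1, 88.7 and 51.4, again without overlap (20.8 ± 10.4 against 74.1 ± 19.9, SD, n = 3). Ala had 29.1 ± 15.99 and 57.7 ± 23.6 RPM, and its groups overlapped. Pro (16.4 ± 11.0 and 63.5 ± 40.4) and Tyr (16.2 ± 18.7 and 56.8 ± 27.1) also overlapped, Tyr because the third control library stood at 37.9 beside 5.45 and 5.40 in the other control libraries.

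The less abundant classes with no overlap were Cys, at 7.69 ± 4.38 and 29.3 ± 11.7 RPM, and iMet, at 4.22 ± 1.16 and 19.7 ± 7.89. Ile had 1.21 ± 2.10 and 15.8 ± 15.97, from only 2 control reads, both in the first control library. Elongator Met was read 8 times in the experimental and never in the control libraries, where a count of 0 allows up to 1.87 RPM over the 3 libraries together. Phe had 11 reads, Trp 5 and Asn 4, all with overlapping groups. The order Ser, Leu, SeC in the experimental libraries is not resolved by the spread between libraries, and neither is the order of Pro, Ala and Tyr.

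In 7 of the 14 classes every experimental library lay above every control library, and in 0 every one lay below. Over all 42 sums of 5' fragments by amino acid, nuclear and mitochondrial, the same was true of 33.3%, and over the 8 nuclear amino acids left out of 50.0%. The count in the set is therefore the same share as among the other nuclear amino acids. Each such class had an exact permutation p of 0.1, adjusted p = 0.2 over the 14 classes.

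**Figure D2:**
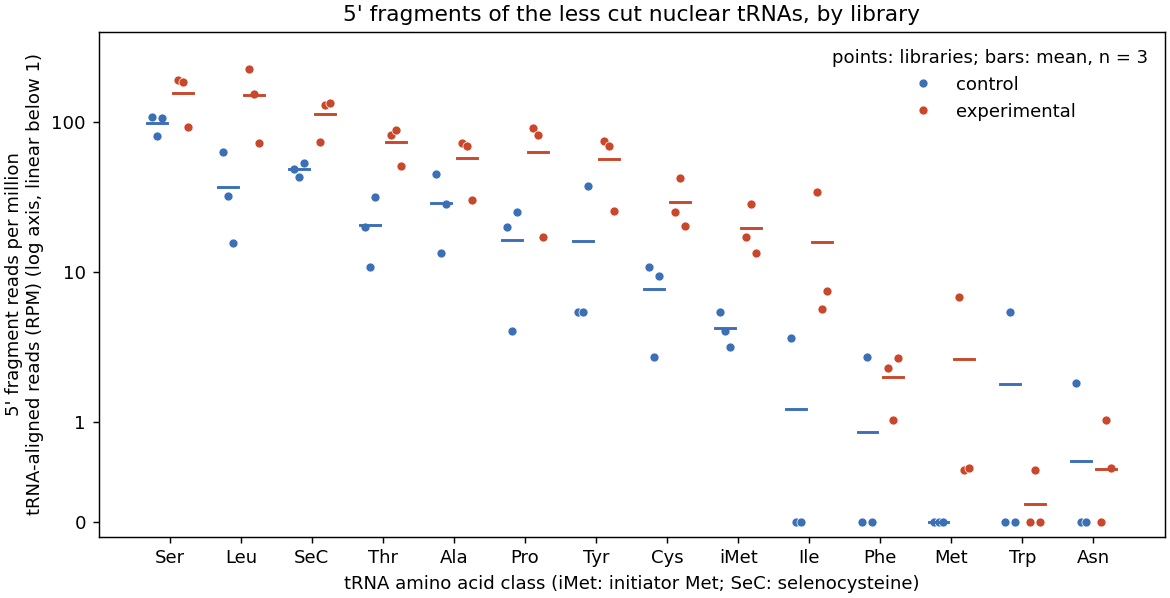
RPM (log axis, linear below 1) of the 5' fragments of each amino acid class, with 1 point per library and a bar at the mean of 3. Leu, SeC, Thr, Cys, iMet, Ile and Met show no overlap between control and experimental libraries, whereas Ser, Ala, Pro and Tyr do.

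A model fitted to all amino acid sums at once called none of these classes. Its sums are not the set alone. They also took exact 5' sequences shared with left-out or mitochondrial tRNAs, split equally. The sequences shared with left-out nuclear tRNAs had 85, 31 and 27 reads in the control libraries and 139, 141 and 95 in the experimental libraries. In the limma voom fit, which scales each library by a trimmed mean of its sums, 2 of 27 sums passed an adjusted p of 0.05 (7.41%), 1 higher (3.7%) and 1 lower (3.7%) in the experimental libraries, and 0 of the 9 classes of the set that could be tested passed, with 0 at an unadjusted p under 0.05. The log2 fold changes, experimental over control, were 1.48 ± 0.75 for Tyr, 1.35 ± 0.66 for Leu, 1.26 ± 0.67 for Cys, 1.23 ± 0.66 for iMet and 1.22 ± 0.62 for Thr (SE), each with a limma adjusted p of 0.174. Pro stood at 1.18 ± 0.71 (limma adjusted p = 0.232) and SeC at 0.53 ± 0.69 (limma adjusted p = 0.589). Ala and Ser lay near 0, at -0.17 ± 0.58 and -0.04 ± 0.54. Scaled by the library totals alone, Ala and Ser came to 0.68 and 0.63, and SeC came to 1.15. With sequences of 1 amino acid only, Ala came to 0.28 and Ser to -0.04. The direction of Ala and Ser therefore depends on the scaling, and that of Ala also on how shared sequences are counted. Leaving out 1 library moved SeC between 0.02 (without the third experimental library) and 1.22 (without the first), and Leu was 0.55 without the third control library. The median of the 9 classes was 1.22, beside 0.37 over all 27 sums. Sums entered the fit only with enough reads in 3 libraries. In the set, iMet had 3, 3 and 1 control reads and 15, 55 and 25 experimental reads. Cys had 6, 2 and 3, then 22, 82 and 38. Sums with so few control reads may have entered through the experimental libraries alone, where they are high. Their fold changes, and the median of the 9, therefore support no difference.

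Where the fragments ended was measured from the first base of the anticodon, with negative values on its 5' side. Ends more than 7 bases before the anticodon were counted as D arm or before, ends 7 to 3 bases before it as anticodon stem, and ends from 2 bases before to 4 bases after that first base as anticodon loop. The anticodon letters read at the stated position matched the header in 131 of 131 tRNAs.

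The set ended far earlier than the other nuclear 5' fragments in all 6 libraries. Its mean end was -10.9, beside -1.52 for the 8 amino acids left out, a difference of -9.34 ± 1.83 nt within a library (SD, n = 6 libraries, exact sign-flip p = 0.03125, the smallest that 6 libraries allow, adjusted p = 0.03125 over 7 measures). D arm ends took 62.0% of its reads and 0.232% of the others. Anticodon loop ends took 29.2% and 77.9%, and anticodon stem ends 8.73% and 20.3%. All 3 shares differed in the same direction in 6 of 6 libraries (exact sign-flip p = 0.03125, adjusted p = 0.03125). Without the 14 to 17 nt fragments, a limit chosen after the data were seen, the difference in mean end was -3.37 nt, still negative in all 6 libraries (exact sign-flip p = 0.03125). These values are weighted by reads, and Gly held 3384873 of the 3879741 reads of the others, so the contrast is mostly with Gly. The set was chosen with earlier results of these data known, so the p-values reflect only how alike the 6 libraries were.

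The 2 sets differed in other features of their sequences. Reads under 18 nt made up 43.0% of the set and 0.0367% of the other nuclear 5' fragments. Position 1 was the start of 86.6% of the reads of the set and of 99.3% of the others. GC content averaged 61.9% and 52.0%. Each of these differed the same way in 6 of 6 libraries (exact sign-flip p = 0.03125, adjusted p = 0.03125). Here too the other fragments were mostly Gly, and GC content depends on which tRNAs each set holds.

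**Figure D3:**
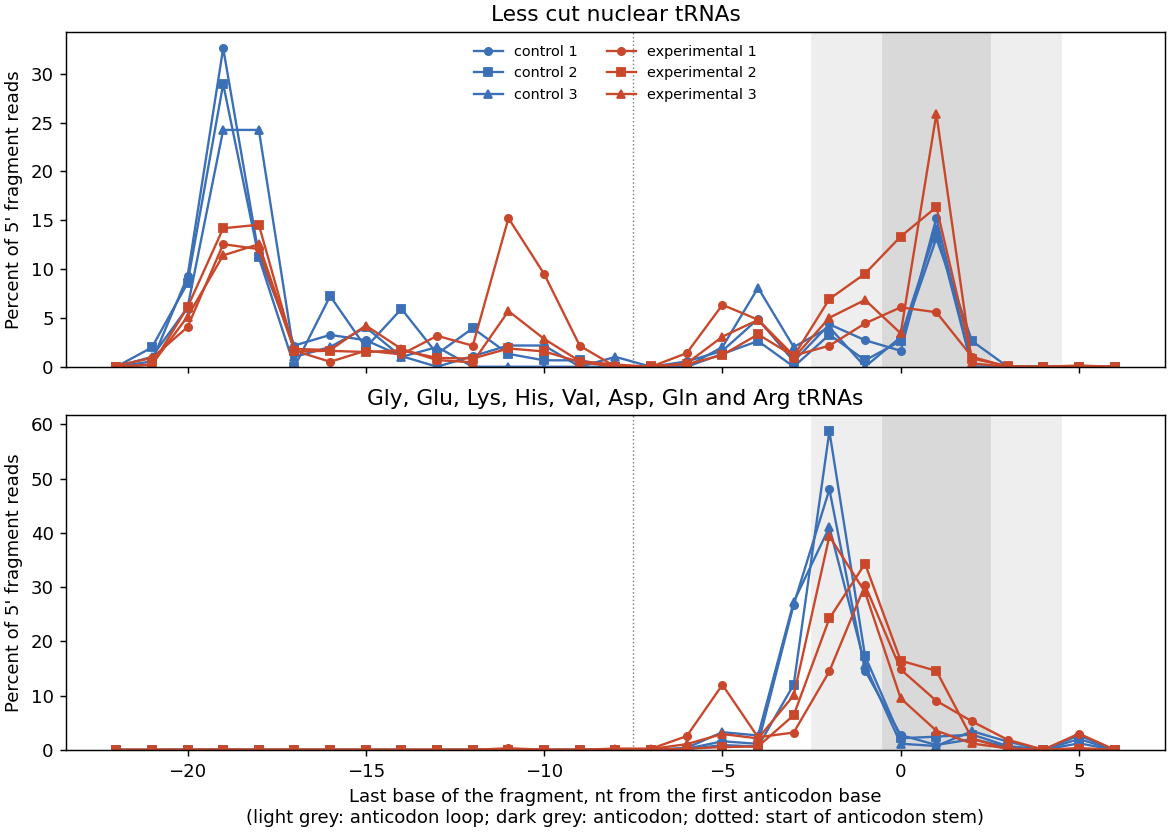
Percent of 5' fragment reads by the last base of the fragment, in nt from the first anticodon base, for the 14 amino acid classes (top) and the 8 amino acids left out (bottom), 1 line per library. The top panel has peaks at 18 and 19 nt before the anticodon and in the loop, and the bottom panel is concentrated around the anticodon loop and stem.

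Across the groups, the mean end of the set was -12.5, -12.9 and -12.4 in the control libraries and -10.5, -8.48 and -8.39 in the experimental libraries. The fragments thus reached further toward the anticodon in every experimental library than in any control library. The difference was 3.50 nt (-12.6 ± 0.254 against -9.12 ± 1.18, SD, n = 3, exact permutation p = 0.1, adjusted p = 0.211). The mean end of the other nuclear 5' fragments differed by 0.543 nt with overlapping groups (exact permutation p = 0.2, adjusted p = 0.317), and the difference between both sets within a library moved by 2.95 nt (exact permutation p = 0.1, adjusted p = 0.211). Most of this lay in the shortest fragments: with sequences of at least 18 nt alone the difference was 0.711 nt (exact permutation p = 0.7). With each amino acid weighted equally it was 1.88 nt (exact permutation p = 0.1).

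Fragments under 18 nt took 54.3%, 50.7% and 56.6% of the set in the control libraries and 30.5%, 36.1% and 29.6% in the experimental libraries. The groups did not overlap (53.9% ± 2.98 against 32.1% ± 3.51, SD, n = 3, exact permutation p = 0.1, adjusted p = 0.211). Counting only sequences of at least 18 nt, the set took 0.0130% of control and 0.0502% of experimental reads (exact permutation p = 0.1). The higher level was thus present in the longer fragments. The level of the fragments under 18 nt alone was not compared between the groups.

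Single end positions differed in whether the groups overlapped. With the libraries pooled, the most frequent end lay 1 nt after the first anticodon base, with 604 reads. Of these, 543 were the single fragment SeC-TCA 1 to 37. Ends 19 nt before the anticodon had 562 and were the more frequent of the 2 in each control library. The end 1 nt after that base took 14.2% ± 1.03 of the control reads and 15.9% ± 10.2 of the experimental reads. The first experimental library was at 5.58%, below all controls. Ends 19 nt before the anticodon, in the D arm, took 28.6% ± 4.19 of the control reads and 12.7% ± 1.39 of the experimental reads, without overlap. They had 60, 44 and 24 control reads and 99, 235 and 100 experimental reads, the latter from deeper libraries. Since the level of the whole set was higher in the experimental libraries, a lower share is not by itself a lower level. Ends 1 nt before the anticodon took 1.13% ± 1.42 and 6.94% ± 2.55, and ends on its first base 2.43% ± 0.721 and 7.61% ± 5.13, both without overlap. Their control shares rest on 5, 1 and 0 reads and on 3, 4 and 3 reads. Both were also higher without overlap in the amino acids left out, so they are not particular to the set. There they went from 15.9% ± 1.36 to 31.3% ± 2.73 and from 2.01% ± 0.811 to 13.6% ± 3.64. Ends 16 nt before the anticodon took 4.17% ± 2.73 and 1.28% ± 0.672 of the set, also without overlap. These positions were picked after their values were seen and carry no test. The other frequent D arm end, 18 nt before the anticodon, took 15.6% ± 7.47 and 13.0% ± 1.32.

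The anticodon loop share itself was uneven among the experimental libraries. It was 23.9%, 22.4% and 21.2% in the control libraries and 19.3%, 47.0% and 41.5% in the experimental libraries. The first experimental library lay below all controls and the other two above (22.5% ± 1.36 against 35.9% ± 14.7, SD, n = 3, exact permutation p = 0.4, adjusted p = 0.507). Without the first experimental library the difference of 13.4 percentage points became 21.8, and without the second it became 7.89. The first experimental library had instead 15.2% of its reads ending 11 nt and 9.51% ending 10 nt before the anticodon, where the other 5 libraries had at most 5.70% and 2.85%. With SeC left out, a choice made after the data were seen, the loop share was 9.72% in control and 24.2% in experimental libraries. The groups then did not overlap (exact permutation p = 0.1). With sequences of at least 18 nt alone, also chosen afterwards, it was 48.9% and 53.5% (exact permutation p = 0.7).

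The amino acid classes fell into those that ended in the D arm and those that ended in the anticodon loop. Of the Ser reads, 98.8% ended in the D arm or before, and in every library the share was at least 97.8%. The same held for 95.5% of Tyr reads and for all 57 Ile reads. Leu, with 82.6% in the D arm, also had 16.5% in the loop.

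At the other extreme, 92.7% of SeC reads, 91.2% of iMet reads, 85.6% of Cys reads and 72.3% of Pro reads ended in the anticodon loop. Thr stood between, with 57.9% in the anticodon stem and 40.5% in the loop. Members of 1 class differed by anticodon: all 193 Ala-AGC reads ended in the D arm, whereas 83.7% of the 86 Ala-CGC reads ended in the loop. Of the Ala-CGC reads, 70 came from the second experimental library, so that contrast rests mainly on 1 library.

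**Figure D4:**
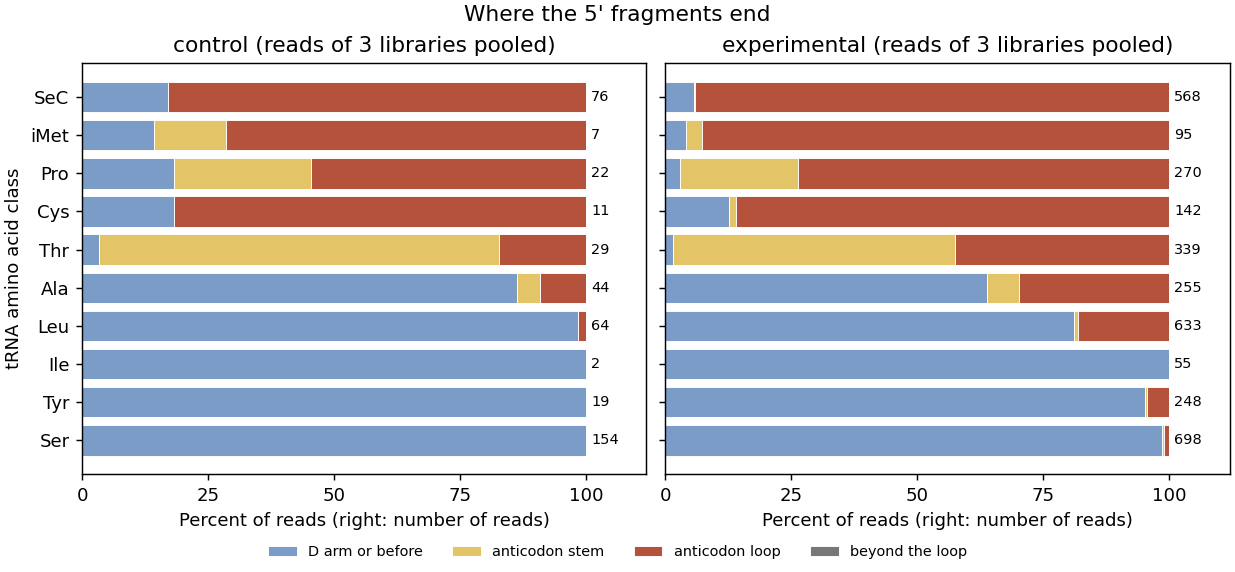
Percent of 5' fragment reads ending in each part of the tRNA, by amino acid class, with the reads of 3 libraries pooled per group and the number of reads at the right. Ser, Tyr and Ile are almost wholly D arm or before, while SeC, iMet and Cys are mostly anticodon loop in both groups.

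In the mixed classes, pooled loop shares were higher in the experimental group, but the control counts were small and the second experimental library held most of the loop reads. Loop ends made up 1.56% of 64 control reads and 18.01% of 633 experimental reads of Leu. For Ala the shares were 9.09% of 44 and 29.8% of 255, for Thr 17.2% of 29 and 42.5% of 339, and for Pro 54.5% of 22 and 73.7% of 270. These pooled shares carry no test, since reads of 1 library are not replicates. The second experimental library supplied 80 of the 114 experimental loop reads of Leu, 110 of the 144 of Thr, 132 of the 199 of Pro and 66 of the 76 of Ala. In Leu, the experimental libraries had 16 loop ends in 199 reads, 80 in 297 and 18 in 137. The control libraries had 0 in 35, 1 in 24 and 0 in 5. Every experimental share of Leu was thus above every control share. In Ala, experimental libraries 1 and 3 had 5 loop ends in 64 reads and 5 in 57, beside 3 in 25, 1 in 10 and 0 in 9 in the control libraries, so the pooled Ala difference rests on the second experimental library. For Thr, experimental libraries 1 and 3 had 9 in 72 and 25 in 96, beside 2 in 11, 3 in 8 and 0 in 10 in the control libraries. Both lay within the control range, so the pooled Thr difference also rests on the second experimental library. For Pro, experimental libraries 1 and 3 had 42 in 80 and 25 in 32, beside 7 in 11, 1 in 3 and 4 in 8. The first lay within the control range and the third above it.

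Neighbouring ends of 1 tRNA were also spread unevenly over the libraries, as examples chosen after their values were seen show. Ends at position 32 of Thr tRNAs had 2, 3 and 0 control reads and 4, 80 and 21 experimental reads. Ends at position 29 had 1, 0 and 0 control reads and 37, 10 and 24 experimental reads. The second experimental library was thus highest at position 32, in the loop, and the first at position 29, in the stem.

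Leu tRNAs showed the same split. Ends at position 35 had 0 control reads and 11, 53 and 2 experimental reads, and ends at position 25 had 2, 1 and 0 control reads and 45, 15 and 14 experimental reads. In Pro, ends at position 33 had 1, 0 and 1 control reads and 14, 75 and 5 experimental reads, while ends at position 29 had 1, 0 and 0 and then 20, 10 and 2. The 5' fragments of the experimental libraries therefore did not share 1 profile of ends.

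The last base of the fragments differed between the 2 main classes of end. Of the 2045 reads ending in the D arm or before, 25.9% ended on G with T as the next base of the tRNA, which is the step after the capitals of the Ser line above. Of the 1395 reads ending in the loop, 48.3% ended on C with A next, the step seen in the SeC line. These shares follow the few abundant fragments and describe sequence only.

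Starts were also specific to a class. Thr reads began at position 1 in 99.7%, Ser in 96.2%, Tyr in 74.2% and Ala in 69.9%, but Cys in only 7.84%, with 64.1% of Cys reads beginning at position 2. Ile began at position 1 in 38.6%. Of the 14 listed Cys tRNAs, 14 begin with at least 4 G, as do 16 of 22 Ala tRNAs and 2 of 17 Pro tRNAs. Fragments that themselves began with 4 G held 71.9% of the Cys reads, 75.9% of the Ala reads and 8.97% of the whole set. In Cys, a start at position 2 still leaves 4 G at the 5' end, as the capitals of the Cys line show.

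The 5' fragments were a minor piece of these tRNAs. Among all exact reads of the 131 tRNAs, they made up 1.64%, 3.99% and 3.09% in the control libraries and 9.63%, 15.98% and 12.7% in the experimental libraries, with no overlap (2.91% ± 1.18 against 12.8% ± 3.17, SD, n = 3, exact permutation p = 0.1, adjusted p = 0.211). For the 8 amino acids left out, the same share was 96.8% ± 2.02 and 97.8% ± 1.23 (exact permutation p = 0.6, adjusted p = 0.713). The difference between the 2 sets within a library moved by 8.79 percentage points (exact permutation p = 0.1, adjusted p = 0.211).

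Pieces from the 3' end took 72.3% ± 8.33 of the exact reads of the set in control and 50.1% ± 1.73 in experimental libraries, and internal pieces 24.8% ± 7.24 and 37.1% ± 1.88. The 3' pieces were at 16682, 3470 and 6830 RPM in control and 4778, 2592 and 1891 in experimental libraries. The first control library was therefore far above the others, and the 5' share moved with both pieces. The part of the 3' pieces in the higher 5' share was not tested.

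By class, the 5' share was highest in Ser, at 28.2% ± 8.22 in control and 56.3% ± 6.91 in experimental libraries (exact permutation p = 0.1). Thr had 4.14% ± 1.97 and 23.9% ± 4.69, Leu 1.42% ± 0.955 and 11.8% ± 4.54, and Cys 1.13% ± 0.347 and 10.7% ± 5.09 (exact permutation p = 0.1 for each, SD, n = 3). SeC ranged from 5.50% to 83.2% between libraries, with 25.3% ± 22.1 and 52.2% ± 33.1 (exact permutation p = 0.3). Ala stayed low, at 1.33% ± 0.177 and 4.31% ± 0.743 (exact permutation p = 0.1).

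Of single fragments, 2226 sequences of the whole table had enough reads to test. The limma voom fit called 586 of them at an adjusted p of 0.05 (26.3%), 416 higher in the experimental libraries (18.7%) and 170 lower (7.64%). That count depended on the model. With each fragment's own spread 23 were called (1.03%), with library totals 342 (15.4%), and with limma trend on log2 CPM 605 (27.2%). Only 5 sequences of the set were tested, with 30.4% of its reads, and 0 were called, 1 of them (Tyr-GTA 1 to 16) having a raw p under 0.05. The others were too rare for the filter. The 5 tested had a median log2 fold change of 0.76, beside 0.21 over all 2226.

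SeC-TCA 1 to 37, the most abundant fragment of the set, had 26, 19 and 9 reads in the control libraries and 35, 235 and 219 in the experimental libraries. In RPM, the first experimental library, at 39.9, lay within the control range of 25.7 to 47.3, and the other two were at 122 and 117. The log2 fold change was 1.58 ± 0.91 (SE, limma adjusted p = 0.192).

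Tyr-GTA 1 to 16 had 2, 3 and 4 control reads and 40, 66 and 19 experimental reads. It had 6.77 ± 5.07 RPM in control and 30.0 ± 18.1 in experimental libraries, which overlapped because the third of each group stood at 12.6 and 10.2. Its log2 fold change was 2.18 ± 0.99 (SE, limma adjusted p = 0.0866, unadjusted p = 0.0275).

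Ser-AGA/Ser-TGA 1 to 15 had 36, 19 and 18 control reads and 41, 90 and 48 experimental reads. Its RPM were 49.3 ± 20.9 and 39.7 ± 12.1 (SD, n = 3), with overlap, unlike those of the whole set (log2 fold change 0.01 ± 0.91, limma adjusted p = 0.994). Ser-AGA/Ser-TGA 1 to 16, 1 base longer, had 6, 7 and 5 control reads and 10, 54 and 25 experimental reads (log2 fold change 0.65 ± 0.98, limma adjusted p = 0.662). Thr-TGT 1 to 30 had 8, 4 and 8 control reads and 16, 35 and 34 experimental reads (log2 fold change 0.76 ± 0.98, limma adjusted p = 0.5998). Its 3 experimental libraries were close together, at 18.3, 18.2 and 18.2 RPM. The control libraries stood at 14.5, 5.40 and 25.2 RPM, so the groups overlapped.

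The other printed fragments had too few reads for the fit. Pro-AGG/Pro-CGG/Pro-TGG 1 to 32 had 1, 1 and 0 control reads and 19, 42 and 13 experimental reads. All experimental libraries were higher in RPM, 16.8 ± 8.53 against 1.06 ± 0.944 (SD, n = 3). iMet-CAT 1 to 33 had 0, 3 and 0 control reads and 7, 16 and 6 experimental reads. Ala-AGC 3 to 16 had 6, 0 and 1 control reads and 12, 24 and 14 experimental reads. The Leu fragment had 6, 5 and 1 and then 9, 22 and 10 reads, and the Cys fragment 2, 0 and 2 and then 2, 20 and 4. Among these, Leu and Cys overlapped between groups in RPM, as did iMet, while Ala did too only through its first control library at 10.9.

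A cut in the loop leaves a piece that begins right after the 5' fragment, and reads of that kind were looked for after each printed fragment. After the SeC fragment, 504 reads began at position 38 and ended at positions 51 to 54, most often at 52. They had 413, 17 and 54 reads in the control libraries and 4, 11 and 5 in the experimental libraries. In RPM this was 751, 23.0 and 170, then 4.56, 5.71 and 2.68, so the groups did not overlap and the order was opposite to that of the 5' fragment. The first control library held most of these reads.

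After the iMet fragment, 67 reads began at position 34, with 2, 2 and 0 in the control libraries and 30, 11 and 22 in the experimental libraries. All 3 experimental libraries were higher in RPM (2.11 ± 1.89 against 17.2 ± 15.02, SD, n = 3), as for the iMet class itself. No other printed fragment had more than 9 reads beginning at the next base. These comparisons were chosen with the fragments and carry no test.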

How the data were processed

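Small RNA libraries were made from total RNA of rat muscle (Trizol, NEBNext small RNA kit, Illumina NextSeq), per the labels' protocols. The authors deposited a table of raw read counts per distinct sequence and library, aligned to mature and precursor tRNAs, per the file headers. For the aligner and the genome build, the sources used here give no name for rat, and the submitters' processing notes name mm9, a mouse build. The 1812 lines of tRNA names between the count rows were read as headers. A sequence on several tRNAs entered the totals once.

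Sums by amino acid split a sequence with several amino acids equally, and were filtered by the same rule as single fragments. The filter on single fragments asked for a CPM (counts per 1000000) worth 10 counts in the median library, in 3 libraries, and 15 counts in all. Both were fitted with limma 3.58.1 voom in R 4.3.3 (prior count 0.5), with trimmed-mean factors (log ratio trim 0.3, sum trim 0.05), no covariate and Benjamini-Hochberg adjustment at 0.05. The fit was tested on simulated data. Single values were compared with exact permutation tests over libraries (scipy 1.17.1). Groups came from the titles. Intervals are 95% Wilson, and a count of 0 was read as at most 3. The fragment named per amino acid is the one with the highest mean share over 6 libraries. One such fragment is not reported here, and those of the 4 rarest classes, with few reads, are not printed. Rises and falls past the threshold were also to be named, and there were 0. The members and lists were chosen with earlier results of these data known. Alternatives covered starts, mismatches, scaling, filters, model, weighting and left-out libraries.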

Additional observations from a re-analysis of the deposited data

How the results depend on the processing

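Of 365 alternative values over 38 results, 344 kept their direction and their side of the threshold. Many of these could not change side. The exact permutation tests between the groups, and the sign-flip test of 3 pairs, cannot give a p under 0.05. For those values only the direction could change. The count of single fragments called in the set, 0 of 5 tested, became 25 of 388 with no filter, all higher in the experimental libraries (3102 of all 77567 sequences were then called), and ran from 0 to 3 when 1 library was left out: 3 of 10 tested without the first control (30.2% of all sequences tested were then called), 1 of 10 without the second control (22.1%), and 2 of 7 without the third experimental library (17.7%). Some of these sequences, such as Pro-AGG/Pro-CGG/Pro-TGG 1 to 32, could enter the fit only through the experimental libraries, where they are high, so these counts support no difference. More sequences were tested in each of these cases. Tyr-GTA 1 to 16 passed with no filter, at a log2 fold change of 2.62 (limma adjusted p = 0.0268).

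Values near 0 changed sign. The log2 fold change of the Ala sum (-0.17) became 0.68 with library totals and 0.28 with sequences of 1 amino acid only, and ran from -0.53 to 0.14 with 1 library left out. That of the Ser sum (-0.04) became 0.63 with library totals and ran from -0.39 to 0.26. That of Ser-AGA/Ser-TGA 1 to 15 (0.01) became -0.24 with library totals, -0.18 with median-of-ratios factors and -0.00169 with the replicate block, and ran from -0.43 to 0.48. The difference in the anticodon stem share, 1.68 percentage points, ran from -0.376 to 3.80. The cause was not tested.

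Other log2 fold changes kept their sign but moved. With library totals, Cys became 1.94, Leu 2.09, Pro 1.90, Thr 1.89, iMet 1.91, SeC 1.15 and Tyr 2.19. With 1 library left out, SeC ran from 0.02 to 1.22, Leu from 0.55 to 1.59, Pro from 0.75 to 1.64, iMet from 0.74 to 1.80, and Thr-TGT 1 to 30 from 0.14 to 1.01. With 1 mismatch allowed, Leu was 0.73, and with starts at position 1 only, SeC was 0.14.

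The library numbers of the titles did not pair the samples: same-numbered libraries correlated at -0.31, -0.0573 and 0.1362 after removal of the group means, and not every library correlated best with its own number. With the replicate block, 0 fragments and 0 amino acid sums of the set were called, as without it, and the difference in share of 0.0459 percentage points kept its direction (exact sign-flip p = 0.25, the smallest 3 pairs allow). Leaving out 1 library gave a difference in share of 0.0381 to 0.0596 and in mean end of 3.13 to 4.18 nt. Depth limits the rare sequences most, since 274 of the 388 had under 5 reads in the series.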
